A study of Mus musculus with 40 samples.

Results

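The 10 genes of bile acid synthesis and transport described here were listed by name: the synthesis enzymes Cyp7a1, Cyp8b1, Cyp27a1 and Cyp7b1, the transporters Slc10a1, Abcb11, Slco1a1 and Slco1b2, and the nuclear receptors Nr1h4 and Nr0b2. They are 10 of 55487 genes in the count table, and all 10 were among the 20297 genes that passed the filter on low counts. Liver RNA was sequenced in 40 libraries, 1 female mouse each, of the strain labelled C57BL/6JBomTac. Hepatocyte-specific Nampt knockout (HNKO) mice carried floxed Nampt alleles and 1 Alb-Cre transgene, which is driven by the albumin promoter and so acts mainly in hepatocytes. Since the common precursors of hepatocytes and cholangiocytes express albumin, such a transgene can also recombine in some cholangiocytes. WT mice were littermates with the floxed alleles and no Cre. All mice ate a purified diet (PD), with 4 times of tissue collection, days 3, 6, 12 and 21. The labels give this number as the age and the study's methods as the time on this diet. The methods' reading is used here, since they describe mice that were already weeks old when the diet began. After 2 HNKO libraries of day 21 that the labels describe as having failed quality control were left out, 38 libraries remained. They comprised 5, 4, 5 and 5 WT mice and 5, 5, 6 and 3 HNKO mice at days 3, 6, 12 and 21.

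Bile acids are made from cholesterol in hepatocytes. In the classic pathway Cyp7a1 carries out the rate-limiting 7-alpha-hydroxylation and Cyp8b1 the 12-alpha-hydroxylation that leads to cholic acid, whereas the alternative pathway starts with Cyp27a1, a mitochondrial sterol 27-hydroxylase, and continues with Cyp7b1, an oxysterol 7-alpha-hydroxylase. Hepatocytes take bile acids up from blood through Slc10a1 (NTCP) and the organic anion transporters Slco1a1 and Slco1b2, and export them into bile through Abcb11 (BSEP). The bile acid receptor FXR, encoded by Nr1h4, induces the corepressor SHP, encoded by Nr0b2, and this represses Cyp7a1 and Cyp8b1. Transcription of Cyp7a1 also follows the day, through clock factors such as Dbp.

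Total counts in the 38 libraries ranged from 16151037 to 64181492 (median 26466478.5). Nampt, the deleted gene, was lower in HNKO livers at every day, with log2 fold changes from -0.93 to -0.69, and passed the edgeR test at days 3, 6 and 12 but not at day 21 (adjusted p = 0.161). The liver label fitted the hepatocyte markers: none of the 10 was at 0 counts in all libraries of a genotype, and their summed level ran from 87514 to 147491 CPM (counts scaled to library size) in WT and from 57010 to 124731 CPM in HNKO livers. The summed level of 9 cholangiocyte markers was 42.3 to 61.4 CPM in WT and 120 to 769 CPM in HNKO livers, without overlap. In bulk liver RNA, fewer cells of a type and less RNA per cell cannot be told apart. The part of these cell types in the results below was not tested.

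Per kilobase of exon, Slco1b2 and Slc10a1 were the most abundant of the genes in WT livers, at 8.39 ± 0.19 and 8.31 ± 0.26 log2 RPKM (SD, n = 19). Abcb11 (7.78 ± 0.31), Cyp27a1 (7.31 ± 0.27), Cyp8b1 (6.80 ± 0.82) and Nr1h4 (6.00 ± 0.31 log2 RPKM) followed. The lowest were Cyp7a1 (4.53 ± 1.39), Nr0b2 (4.53 ± 0.59), Slco1a1 (4.07 ± 1.36) and Cyp7b1 (3.74 ± 0.60 log2 RPKM), which lay within 1 SD of the neighbouring gene in this order. Slco1b2 and Slc10a1, and Cyp27a1 and Cyp8b1, and Cyp8b1 and Nr1h4, were likewise closer than the larger SD of the pair. In HNKO livers the means were 7.75 for Slco1b2, 7.54 for Slc10a1, 7.36 for Abcb11, 6.98 for Cyp27a1 and 6.27 log2 RPKM for Cyp8b1, the same order of the top 5.

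To ask whether genes of bile acid handling differed between HNKO and WT livers, daily differences and their mean over the 4 days were tested in 1 edgeR quasi-likelihood fit over all genes. Over the 4 days, 5 of the 10 genes were lower in HNKO livers and 0 were higher at an adjusted p under 0.05: the uptake transporters Slc10a1 and Slco1b2, the export pump Abcb11, and the enzymes Cyp8b1 and Cyp27a1 (which turned to 0.02 on the log2 scale with libraries scaled to hepatocyte markers). Under that scaling Slc10a1 and Slco1b2 were still called, and Abcb11, Cyp8b1 and Cyp27a1 were not. With a score of acute phase genes as a covariate, 0 of the 5 were called. At each day this score was higher in every HNKO library than in every WT library. That fit can therefore barely tell the score from genotype, and nothing is read from the loss of these calls. Of all tested genes, 17.3% were called lower in the mean under TMM and without a covariate, and 36.4% were called in either direction. The median log2 fold change of the 10 genes was -0.36, and that of all tested genes was -0.01. The mean uses the same libraries as the daily tests and is not independent of them. By day, 1 gene was called at day 3 (Slco1b2), 1 at day 6 (Cyp8b1), and 0 at days 12 and 21 by edgeR. At an unadjusted p under 0.05 there were 5, 4, 4 and 2, against 20.9%, 26.6%, 24.5% and 18% of tested genes. The 2 of 10 at day 21 stood near the background, and the 4 of 10 at days 6 and 12 were not clear of it. DESeq2 called 3, 3, 2 and 0 of the 10 and 7.04%, 14.4%, 10.1% and 4.9% of tested genes. By edgeR, 4.66%, 12.8%, 7.82% and 3.12% of all tested genes were called at days 3, 6, 12 and 21, and 1.71%, 4.37%, 3.27% and 0.916% were called lower. The log2 fold change was negative for 9, 9, 9 and 6 of the 10 genes at the 4 days.

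**Figure D1:**
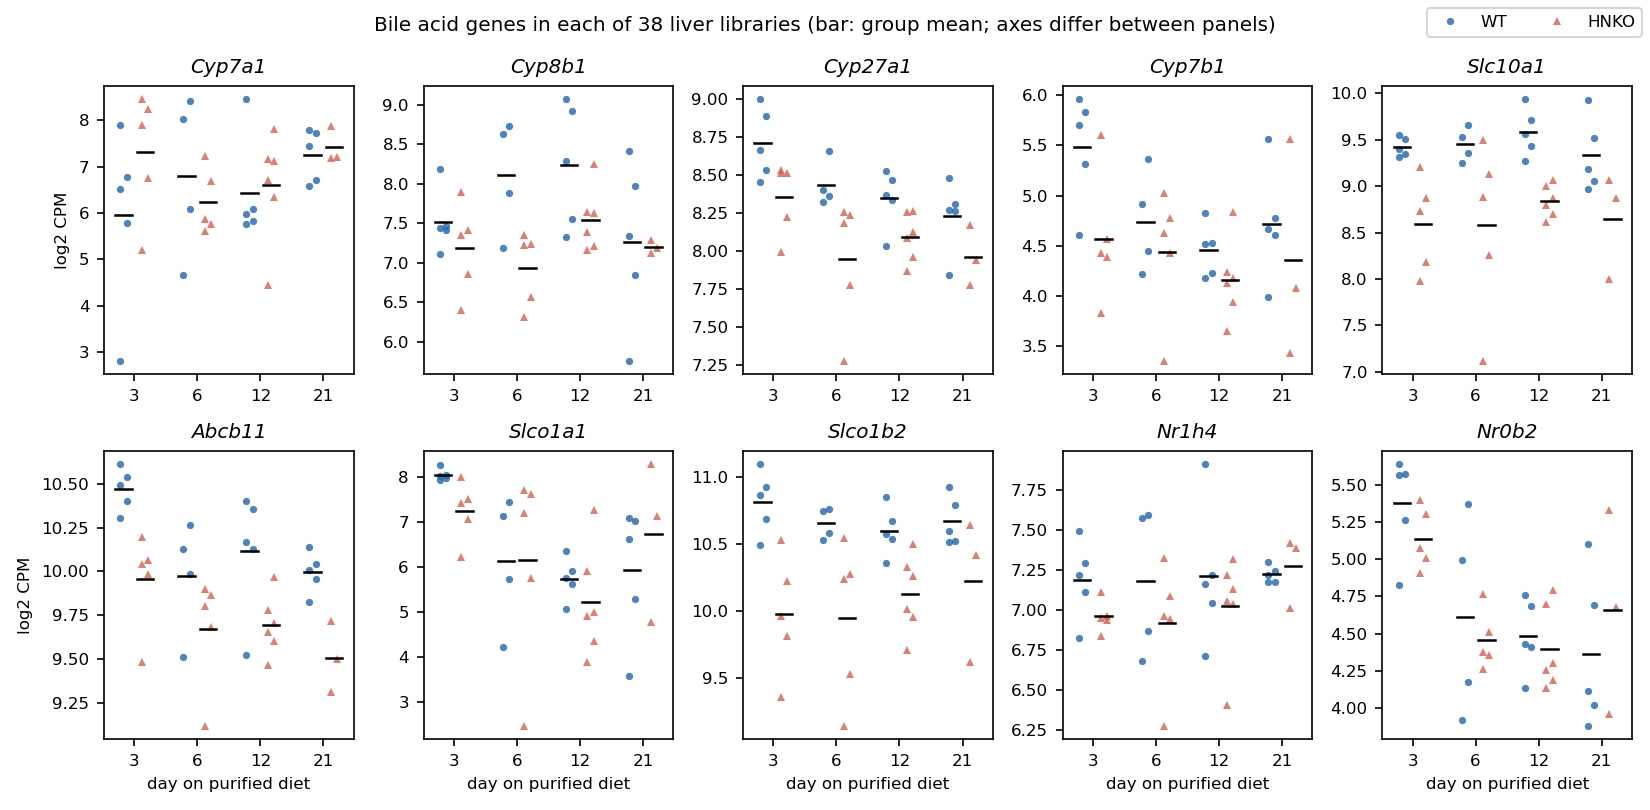
Log2 CPM (y axis) of each of the 10 genes by day on the purified diet (x axis) in WT (circles) and HNKO (triangles) livers, with 1 point per library, 38 in all, and a bar at each group mean. Slc10a1 of the HNKO libraries lay below all WT libraries at days 3 and 12, whereas Cyp7a1 and Slco1a1 spread over more than 5 log2 units with overlapping groups.

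**Figure D2:**
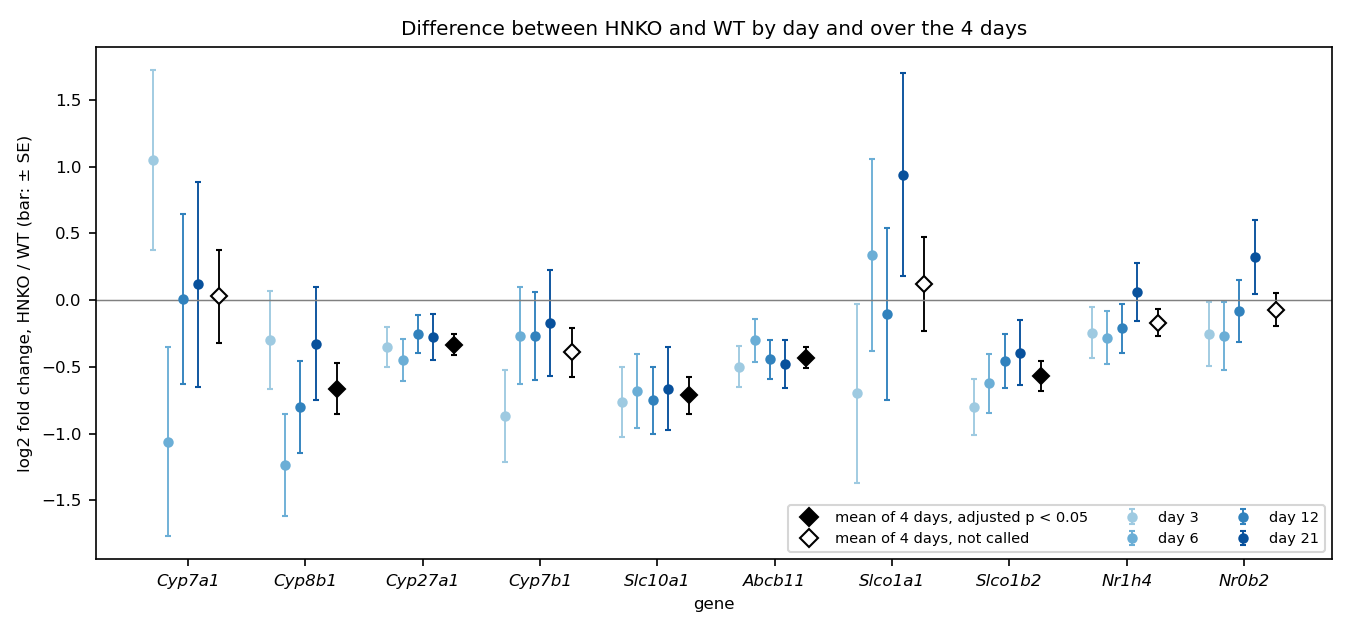
Log2 fold change of HNKO over WT (y axis, error bars SE) for each gene (x axis) at 4 days (circles, light to dark from day 3 to day 21) and for the mean of the 4 days (diamonds, filled where the adjusted p was under 0.05). The filled diamonds of Cyp8b1, Cyp27a1, Slc10a1, Abcb11 and Slco1b2 lie between -0.71 and -0.33. Scaling to hepatocyte markers put Cyp27a1 at 0.02, Abcb11 at -0.08 and Cyp8b1 at -0.32, none of them called.

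The promoters of these 5 genes are shown because the genes were lower together in HNKO livers. Each is RefSeq sequence of build GRCm38.p6 from 250 bases before to 50 bases after the start site, 5′ to 3′ on the gene's strand, and 8 of the 10 genes had an entry. Capitals mark matches on either strand to the nuclear receptor half-site AGGTCA, its extended form CAAGGTCA (which contains AGGTCA), the FXR element made of AGGTCA and its inverse complement with 1 base between them, the HNF4-type element CAAAGTCCA, or the HNF1 half-site GTTAAT.
Slc10a1 (chr12:80968656-80968955, minus strand): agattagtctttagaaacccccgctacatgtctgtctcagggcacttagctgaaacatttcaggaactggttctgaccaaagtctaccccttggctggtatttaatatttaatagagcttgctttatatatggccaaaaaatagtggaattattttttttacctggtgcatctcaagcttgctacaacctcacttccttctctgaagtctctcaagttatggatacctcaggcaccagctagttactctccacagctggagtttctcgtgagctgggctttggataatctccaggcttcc
Slco1b2 (chr6:141629268-141629567, plus strand): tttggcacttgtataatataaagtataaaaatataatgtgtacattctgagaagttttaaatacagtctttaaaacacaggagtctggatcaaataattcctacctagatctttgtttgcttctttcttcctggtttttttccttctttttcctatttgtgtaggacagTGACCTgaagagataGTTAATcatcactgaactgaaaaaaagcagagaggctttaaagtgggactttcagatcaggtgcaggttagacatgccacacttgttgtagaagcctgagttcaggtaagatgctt
Abcb11 (chr2:69342567-69342866, minus strand): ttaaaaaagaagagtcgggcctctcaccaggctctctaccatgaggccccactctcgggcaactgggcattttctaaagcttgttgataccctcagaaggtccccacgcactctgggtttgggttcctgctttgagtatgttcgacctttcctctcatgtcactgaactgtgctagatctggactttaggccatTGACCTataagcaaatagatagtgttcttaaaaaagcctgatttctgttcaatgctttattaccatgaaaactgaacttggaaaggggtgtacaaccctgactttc
Cyp8b1 (chr9:121916256-121916555, minus strand): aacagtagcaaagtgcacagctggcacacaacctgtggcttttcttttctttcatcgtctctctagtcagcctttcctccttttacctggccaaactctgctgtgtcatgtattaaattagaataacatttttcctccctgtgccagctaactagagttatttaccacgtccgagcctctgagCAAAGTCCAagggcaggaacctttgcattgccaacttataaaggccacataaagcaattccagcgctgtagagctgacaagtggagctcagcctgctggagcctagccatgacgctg
Cyp27a1 (chr1:74713285-74713584, plus strand): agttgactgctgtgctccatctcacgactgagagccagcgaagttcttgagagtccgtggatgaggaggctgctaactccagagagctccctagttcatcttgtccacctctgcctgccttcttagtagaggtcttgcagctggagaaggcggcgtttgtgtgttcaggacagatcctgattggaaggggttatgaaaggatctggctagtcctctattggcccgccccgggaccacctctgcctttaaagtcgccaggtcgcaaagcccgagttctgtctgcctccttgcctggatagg
The Cyp8b1 window held the HNF4-type element, found in 0.475% of 32851 mouse promoters of this length. The windows of Abcb11 and Slco1b2 held AGGTCA on the minus strand (16.3% of promoters), and that of Slco1b2 also held GTTAAT (7.1%). The windows of Slc10a1 and Cyp27a1 held none of the 5 motifs. Neither CAAGGTCA (1.56% of promoters) nor the exact letters of the FXR element (0.00913%) were found in any of these 5 windows. Matches with a mismatch were not searched, and aggccatTGACCT in the Abcb11 window differs from the FXR element at 1 base. An FXR site is therefore not excluded. Such matches describe these letters only.

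Slc10a1 (ENSMUSG00000021135.8, chr12:80953183-80968705, GRCm38, minus strand, 6 exons) encodes the sodium-dependent transporter that takes conjugated bile acids up from portal blood. At day 3 the WT libraries read 9.31, 9.35, 9.40, 9.51 and 9.55 log2 CPM and the HNKO libraries 7.98, 8.18, 8.73, 8.88 and 9.20. At day 12 they read 9.27, 9.43, 9.56, 9.71 and 9.94 in WT and 8.61, 8.70, 8.79, 8.88, 9.003 and 9.06 in HNKO. The genotypes did not overlap at either day. At day 6 the WT libraries read 9.25, 9.36, 9.53 and 9.66 and the HNKO libraries 7.12, 8.26, 8.88, 9.13 and 9.50 log2 CPM, where 1 HNKO mouse lay inside the WT range. At day 21 WT read 8.97, 9.06, 9.19, 9.51 and 9.92 and HNKO 7.997, 8.88 and 9.06 log2 CPM, with 1 HNKO mouse again inside. Over all days 17 of 19 HNKO libraries were below every WT library of their day. The mean log2 fold change was -0.71 (SE 0.14, edgeR adjusted p = 0.00012), or 39.04% lower. It was -0.42 (adjusted p = 0.0004) with libraries scaled to hepatocyte markers and -0.55 (adjusted p = 0.296) with a score of acute phase genes as a covariate. The daily values of -0.76, -0.68, -0.75 and -0.66 had adjusted p-values of 0.0827, 0.105, 0.0568 and 0.247. Without HNKO library 29 the value at day 6 was -0.43, and without HNKO library 37 that at day 21 was -0.39. The two-sided exact permutation test, unadjusted, gave p = 0.00794 at day 3 and 0.00216 at day 12, the smallest values that these group sizes allow, and p = 0.0873 at day 6 and 0.0714 at day 21.

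Every HNKO library below every WT library was seen for 2 of the 10 genes at day 3 (Slc10a1 and Abcb11), for 1 at day 6 (Cyp27a1), 1 at day 12 (Slc10a1) and 1 at day 21 (Abcb11). Of all tested genes, 1.8%, 4.68%, 2.14% and 6.7% showed this at days 3, 6, 12 and 21, so that the 1 gene of 10 at days 6, 12 and 21 was not clear of the background.

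Slco1b2 (ENSMUSG00000030236.10, chr6:141629518-141686646, plus strand, 15 exons), a basolateral uptake transporter of the liver for bile acids and other organic anions, was the gene called at day 3. WT libraries read 10.49, 10.69, 10.87, 10.93 and 11.10 log2 CPM and HNKO libraries 9.36, 9.81, 9.96, 10.23 and 10.53. Of the HNKO libraries, the highest alone reached the WT range. The log2 fold change was -0.80 (SE 0.21, edgeR adjusted p = 0.0255). The call held in 4 of 10 fits that each left out 1 library of the day and was lost without HNKO library 2, 3 or 23 or WT library 5, 24 or 25 (adjusted p from 0.0501 to 0.0985), with log2 fold changes from -0.97 to -0.67 in all 10. It was also lost when only the groups of day 3 were fitted (adjusted p = 0.061) and when libraries were scaled to hepatocyte markers (-0.46, adjusted p = 0.0765).

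At days 6, 12 and 21, the log2 fold changes of Slco1b2 were -0.62, -0.46 and -0.39, with adjusted p-values of 0.0589, 0.15 and 0.421. Without HNKO library 37 the value at day 21 was -0.13, and without HNKO library 40 it was -0.59. WT libraries of day 6 read 10.53, 10.58, 10.75 and 10.76 log2 CPM and HNKO libraries 9.14, 9.53, 10.24, 10.27 and 10.55. At day 12 WT read 10.36, 10.54, 10.57, 10.67 and 10.85 and HNKO 9.71, 9.95, 10.02, 10.26, 10.32 and 10.50 log2 CPM. In both sets, and at day 21 with WT at 10.51 to 10.92 and HNKO at 9.61, 10.42 and 10.64 log2 CPM, only the highest HNKO library entered the WT range, and 15 of 19 HNKO libraries in all were below every WT library of their day. The mean over the days was -0.57 (SE 0.11, adjusted p = 0.000125), 32.5% lower. It was -0.25 (adjusted p = 0.0227) with libraries scaled to hepatocyte markers and -0.21 (adjusted p = 0.628) with the acute phase score as a covariate.

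Slco1a1 (ENSMUSG00000041698.11, chr6:141907282-141946962, minus strand, 14 exons), a related uptake transporter, did not pass the test on any day, and the mean log2 fold change was 0.12 (SE 0.35, adjusted p = 0.828). It varied more between mice than 99.4% of tested genes, with an SD within groups of 1.31 log2 CPM. In WT livers it read 7.92, 7.96, 8.01, 8.03 and 8.27 log2 CPM at day 3, a narrow range. At day 6 WT read 4.21, 5.72, 7.13 and 7.45 log2 CPM, at day 12 it ranged from 5.07 to 6.34, and at day 21 from 3.57 to 7.09, all below the WT range of day 3. The day effect in WT had an adjusted p of 0.1 (unadjusted 0.00977). The HNKO libraries of day 6 read 2.46, 5.74, 7.20, 7.61 and 7.70 log2 CPM, on both sides of WT. Of the 51-base stretches in its transcripts, 1.58% also occur in other genes, mainly Slco1a5 and Slco1a4.

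Abcb11 (ENSMUSG00000027048.15, chr2:69238282-69342616, minus strand, 31 exons) encodes the canalicular pump that exports bile salts into bile. At day 3 the WT libraries read 10.30, 10.40, 10.50, 10.54 and 10.61 log2 CPM, all above the HNKO libraries at 9.48, 9.98, 10.04, 10.07 and 10.20. At day 21 WT read 9.82, 9.96, 10.01, 10.04 and 10.14, again above all HNKO libraries at 9.31, 9.50 and 9.72 log2 CPM. The groups overlapped at days 6 and 12, when WT ranged from 9.51 to 10.26 and from 9.53 to 10.40, and HNKO from 9.12 to 9.90 and from 9.47 to 9.97 log2 CPM. The log2 fold changes were -0.50, -0.30, -0.44 and -0.48 at the 4 days, with adjusted p-values of 0.0512, 0.234, 0.0544 and 0.133. Their mean was -0.43 (SE 0.08, adjusted p = 7.18e-05), or 25.8% lower, the lowest adjusted p of the 10 genes. With libraries scaled to hepatocyte markers the mean was -0.08 (adjusted p = 0.508), and with the acute phase score as a covariate it was -0.37 (adjusted p = 0.209). The annotated antisense gene Gm13613 shares 136 exon bases with Abcb11, with a median of 82 counts against 26668.5 for Abcb11. Whether strand was used in counting is not given in the sources used here, so these reads cannot be told apart.

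Among the synthesis enzymes, Cyp8b1 (ENSMUSG00000050445.4, chr9:121914356-121916305, minus strand, 1 exon) was called at day 6. The WT libraries read 7.18, 7.89, 8.63 and 8.73 log2 CPM and the HNKO libraries 6.32, 6.56, 7.22, 7.24 and 7.35, so that all but the lowest WT mouse exceeded the HNKO range. The log2 fold change was -1.24 (SE 0.38, edgeR adjusted p = 0.0297), a ratio of 0.425. The call held in 5 of 9 fits that left out 1 library of the day, and was lost without HNKO library 7 or 29 or WT library 27 or 28 (adjusted p from 0.0808 to 0.108, log2 fold changes from -1.12 to -1.02). Scaling to hepatocyte markers also ended it (-0.79, adjusted p = 0.0979).

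At day 12 the WT libraries of Cyp8b1 read 7.33, 7.55, 8.29, 8.92 and 9.07 log2 CPM and the HNKO libraries 7.16, 7.22, 7.39, 7.63, 7.65 and 8.25. Only the 3 highest WT libraries exceeded all HNKO libraries (log2 fold change -0.80, adjusted p = 0.145). At day 3 WT ranged from 7.11 to 8.18 and HNKO from 6.40 to 7.89 log2 CPM (log2 fold change -0.30). At day 21 WT spread from 5.76 to 8.42, around HNKO values of 7.13, 7.19 and 7.29 log2 CPM (log2 fold change -0.33). The mean over the 4 days was -0.66 (SE 0.19, adjusted p = 0.00624), 36.9% lower. It was -0.32 (adjusted p = 0.138) with libraries scaled to hepatocyte markers and -0.38 (adjusted p = 0.66) with the acute phase score.

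Cyp27a1 (ENSMUSG00000026170.6, chr1:74713574-74737892, plus strand, 7 exons) starts the alternative pathway. Under TMM and without a covariate it had the smallest mean difference of the 5 genes, -0.33 (SE 0.08, adjusted p = 0.001) or 20.7% lower. With libraries scaled to hepatocyte markers the mean of Cyp27a1 turned positive and was not called, and with the acute phase score it was not called either. At day 6 the WT libraries read 8.32, 8.36, 8.40 and 8.66 log2 CPM, all above the HNKO libraries at 7.27, 7.78, 8.19, 8.24 and 8.26. The log2 fold changes of -0.35, -0.45, -0.26 and -0.28 had adjusted p-values of 0.163, 0.0547, 0.27 and 0.423. The SD within groups was 0.25 log2 CPM, close to the daily differences.

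Cyp7b1 (ENSMUSG00000039519.6, chr3:18071950-18243338, minus strand, 6 exons), the oxysterol 7-alpha-hydroxylase, had negative log2 fold changes at all 4 days (-0.87, -0.27, -0.27 and -0.17) and a mean of -0.39 (SE 0.18, adjusted p = 0.0869), and was not called. At day 3 the WT libraries read 4.61, 5.32, 5.70, 5.83 and 5.96 log2 CPM and the HNKO libraries 3.83, 4.38, 4.43, 4.57 and 5.61, with all but 1 HNKO mouse below WT. Without HNKO library 22, that highest mouse, the log2 fold change at day 3 was -1.24 (adjusted p = 0.0255), and without HNKO library 22 or 40 the mean was also called (-0.49, adjusted p = 0.0253, and -0.60, adjusted p = 0.00682).

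Cyp7a1 (ENSMUSG00000028240.2, chr4:6265612-6275633, minus strand, 6 exons), the rate-limiting enzyme of the classic pathway, did not pass the test at any day, and its mean log2 fold change was 0.03 (SE 0.35, adjusted p = 0.961). The SD within groups was 1.25 log2 CPM, larger than that of 99.2% of tested genes, and the 38 libraries spanned a 50.5-fold range. At day 3 WT read 2.80, 5.78, 6.52, 6.79 and 7.89 log2 CPM and HNKO 5.21, 6.76, 7.90, 8.24 and 8.46, where 3 HNKO mice exceeded all WT mice (log2 fold change 1.05, SE 0.67). At day 6 WT was at 4.65, 6.08, 8.02 and 8.41 and HNKO at 5.61, 5.77, 5.87, 6.69 and 7.24 log2 CPM (-1.06, SE 0.71). Neither value was called, and without WT library 5 that of day 3 was 1.65, and without WT library 8 that of day 6 was -0.50. Within the 2 series of library numbers (1 to 21 and 22 to 41), the differences of the means were -0.15 and 2.46 at day 3 and -1.80 and 0.74 at day 6, of opposite sign at both days. At day 12 WT read 5.76, 5.83, 5.97, 6.09 and 8.45 log2 CPM, with 1 mouse far above the others, and HNKO 4.43, 6.35, 6.72, 7.11, 7.16 and 7.81. At day 21 WT ranged from 6.58 to 7.80 and HNKO from 7.18 to 7.87 log2 CPM. A difference between the days was not detectable beyond the spread between mice (interaction, unadjusted p = 0.216, adjusted p = 1).

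The receptors were not called at any day. Nr1h4 (ENSMUSG00000047638.15, chr10:89454234-89533585, minus strand, 11 exons) had a mean log2 fold change of -0.17 (SE 0.10, adjusted p = 0.187), with medians of 7.22, 7.22, 7.17 and 7.22 log2 CPM in WT and 6.95, 6.96, 7.09 and 7.39 in HNKO livers. Nr0b2 (ENSMUSG00000037583.2, chr4:133553376-133556536, plus strand, 2 exons) had a mean of -0.07 (SE 0.13, adjusted p = 0.702). In WT livers, Nr0b2 read 4.83, 5.26, 5.57, 5.57 and 5.64 log2 CPM at day 3 and 3.92, 4.17, 4.99 and 5.37 at day 6. At day 12 it ranged from 4.14 to 4.76, below all WT libraries of day 3, and at day 21 from 3.88 to 5.10 log2 CPM. This day effect in WT passed the test (adjusted p = 0.0181), with log2 changes from day 3 of -0.67, -0.90 and -0.97, and was lost without WT library 1, 5 or 26. Nr0b2 was 1 of 10 genes called for a day effect in WT, against 5.84% of tested genes, and 6 of the 10 had an unadjusted p under 0.05, against 21.2%. In HNKO livers 0 of the 10 were called (Nr0b2 adjusted p = 0.0922), against 7.9% of tested genes, and 1 had an unadjusted p under 0.05, against 22.9%. The difference between the genotypes in these counts was not tested.

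The interaction of genotype and day, tested by edgeR for a change of the HNKO effect over time, called 0 of the 10 genes, and 0% of all tested genes. At an unadjusted p under 0.05 it held 966 of all genes (4.76%) and 0 of the 10. In the 7 comparisons that could be made within one of these 2 series of library numbers at 1 day, Cyp8b1, Cyp27a1, Slc10a1, Abcb11 and Slco1b2 were each lower in HNKO in 7 of 7, as were 12.8% of all tested genes and 64.5% of the genes called lower in the mean. These differences split the libraries that gave the calls and are no independent evidence of them. Cyp7b1 was lower in 6, Slco1a1 and Nr1h4 in 5, Nr0b2 in 4 and Cyp7a1 in 2. The 2 HNKO libraries of day 21 that were left out, 17 and 18, each lay below the WT range of that day for 7 of the 10 genes, but so did 59.6% and 36.8% of all tested genes, and nothing is read from these 2 libraries.

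Because Cyp7a1 is known to follow the clock, the genes were also set against a clock score of each library, the mean log2 CPM of Per1, Per2, Per3, Dbp, Tef, Hlf, Nr1d1, Nr1d2 and Ciart minus that of Arntl, Npas2 and Clock. The score spread widely within groups, from -2.71 to 3.55 in WT libraries of day 12 and from -3.05 to 2.28 in HNKO libraries of day 6. At day 3 its median was -0.88 in WT and -1.75 in HNKO, and at day 12 it was -1.88 in WT and 0.78 in HNKO. In an edgeR fit with the score beside the 8 groups, 5 of the 10 genes had a slope at an adjusted p under 0.05, against 24.9% of tested genes. Cyp7a1 rose by 0.43 log2 units per unit of the score (SE 0.08, adjusted p = 6.6e-05), Slco1a1 by 0.34 (SE 0.11, adjusted p = 0.0236) and Nr1h4 by 0.15 (SE 0.02, adjusted p = 6.31e-08). Cyp8b1 had the opposite slope, -0.19 (SE 0.06, adjusted p = 0.0117), as did Abcb11, -0.08 (SE 0.02, adjusted p = 0.0138). Without WT library 16 of day 12 and WT library 10 of day 6, the 2 farthest from the median score, the slopes of Cyp7a1 (0.44), Slco1a1 (0.46) and Nr1h4 (0.16) were still called, and those of Cyp8b1 (-0.21, adjusted p = 0.0604) and Abcb11 (-0.03, adjusted p = 0.457) were not.

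Fitted within WT livers, the slopes of Cyp7a1 (0.48), Nr1h4 (0.15), Cyp8b1 (-0.24) and Abcb11 (-0.10) were called, 4 of 10 genes against 16.5% of tested genes. Within HNKO livers those of Nr1h4 (0.15) and Slc10a1 (0.24, adjusted p = 0.0408) were called, 2 of 10 against 9.17%, whereas Cyp7a1 (0.35, SE 0.13, adjusted p = 0.085) and Cyp8b1 (-0.05, SE 0.09) were not. HNKO library 29 of day 6 had both the lowest score (-3.05) and the lowest Slc10a1 (7.12 log2 CPM) of all libraries. Whether the Slc10a1 slope holds without it was not tested. The difference of the slopes between genotypes was called for 0 of the 10 genes and for 0.00985% of tested genes. The lowest p-value of the 10 was that of Slc10a1 (0.26, unadjusted p = 0.00723, adjusted p = 0.353), the only one under 0.05 unadjusted. With the clock score as a covariate, the mean effect called 6 of the 10 genes, the 5 above and Nr1h4 (-0.17, adjusted p = 0.0118), against 40.2% of tested genes. At day 12 it called 3 (Slc10a1, Slco1b2 and Nr1h4), against 18.7%.

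**Figure D3:**
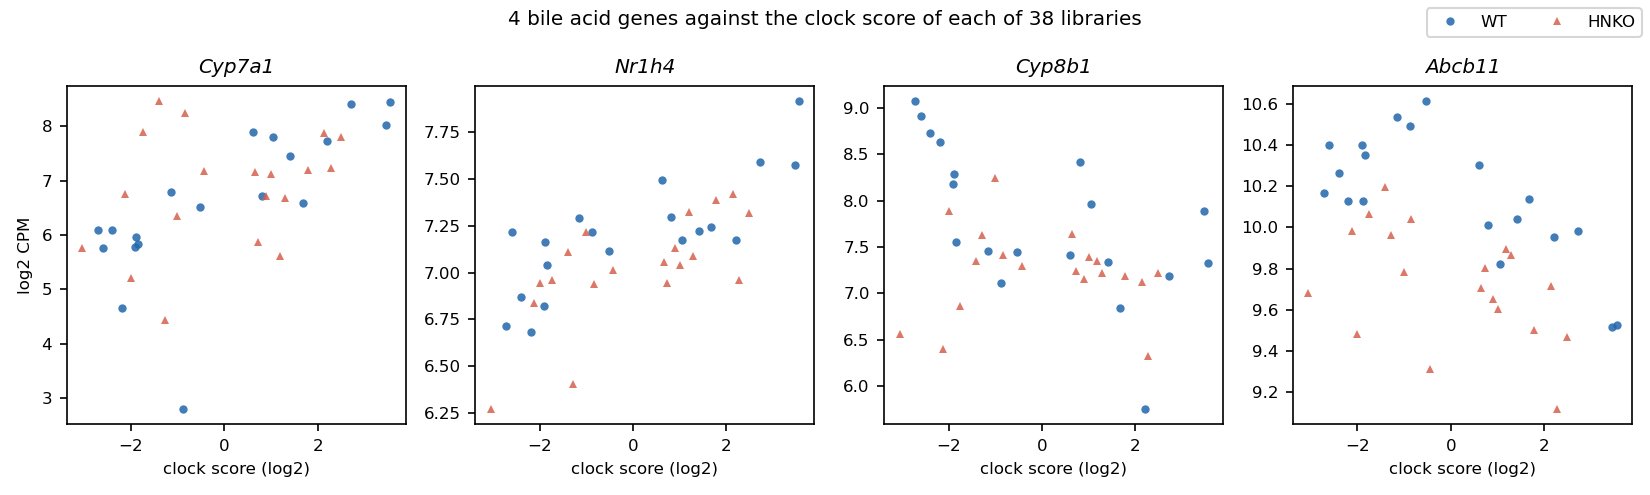
Log2 CPM (y axes) of Cyp7a1, Nr1h4, Cyp8b1 and Abcb11 against the clock score (x axes, log2 units) in 38 libraries, WT as circles and HNKO as triangles, 1 point per library. Cyp7a1 and Nr1h4 were higher and Cyp8b1 and Abcb11 lower at high scores, with fitted slopes of 0.43, 0.15, -0.19 and -0.08. Those of Cyp8b1 and Abcb11 were not called without the 2 libraries farthest from the median score (-0.21 and -0.03), and within HNKO livers the slopes of Cyp7a1 (0.35), Cyp8b1 (-0.05) and Abcb11 (-0.03) were not called.

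The acute phase moved with genotype beside these genes. A score of 8 acute phase genes ranged from -1.43 to -0.35 in the WT libraries and in the HNKO libraries from 0.16 to 1.34 at day 3, 2.23 to 2.78 at day 6, -0.83 to 1.52 at day 12 and -0.45 to 0.24 at day 21. At each day every HNKO library was above every WT library of that day, although some of days 12 and 21 lay within the WT range over all days. The summed level of these genes was 8584 to 16433 CPM in WT and 10742 to 31555 CPM in HNKO livers. Within groups, 0 of the 10 genes had a called slope on this score, against 0.512% of tested genes, and the lowest p-value was that of Nr0b2 (slope -0.37, unadjusted p = 0.00294, adjusted p = 0.13), the only one under 0.05 unadjusted. With this score as a covariate, the mean effect called 0 of the 10 genes and 951 genes in all (4.69%), with log2 fold changes from -0.55 for Slc10a1 to -0.21 for Slco1b2 among the 5 genes. Of the markers of other cells, 8 of 9 cholangiocyte, 7 of 8 stellate cell and fibroblast and 5 of 7 macrophage markers were higher in the mean effect, against 19.2% of tested genes. Near the background, 1 of 6 T and B cell markers was higher and 1 of 6 endothelial markers was lower (0 lower and 5 higher under the hepatocyte scaling described next). None of these markers was at 0 counts in all libraries of a genotype.

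Of the 10 hepatocyte markers, 5 were lower and 0 higher, with a median log2 fold change of -0.27 against -0.36 for the 10 bile acid genes. When libraries were scaled to the geometric mean of these markers in place of all genes, which moved the median of all tested genes to 0.36, Slc10a1 (-0.42, adjusted p = 0.0004) and Slco1b2 (-0.25, adjusted p = 0.0227) were still called lower, with smaller differences than the -0.71 and -0.57 under TMM. Under this scaling 1.7% of all tested genes were called lower and 62.7% higher. Cyp8b1 (-0.32, adjusted p = 0.138), Abcb11 (-0.08, adjusted p = 0.508) and Cyp27a1 (0.02, adjusted p = 0.817) were not, and Nr0b2 was called higher (0.28, adjusted p = 0.0496).

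Other genes of the pathway were followed in a list of 49, of which 48 were tested (Fgf15 reached at most 2 counts in a library). Of the 48, 7, 12, 5 and 3 were lower at days 3, 6, 12 and 21, against 1.71%, 4.37%, 3.27% and 0.916% of tested genes, and 0, 1, 0 and 1 were higher, against 2.95%, 8.42%, 4.56% and 2.21%. The gene higher at days 6 and 21 was Ch25h, which passed the filter on low counts through HNKO alone. In the mean effect 26 were lower and 2 higher, against 17.3% and 19.2% of tested genes, and with libraries scaled to the hepatocyte markers 8 were lower and 17 higher, against 1.7% and 62.7%. The steps of synthesis and conjugation gave 12 lower and 1 higher of 16 in the mean (median log2 fold change -0.44), and 6 lower and 3 higher under that scaling (median -0.08). The list of other membrane transport genes gave 5 lower and 1 higher of 14 (median -0.02) and under that scaling 1 and 8, and the 1 higher under TMM was Ephx1, an enzyme and not a transporter. The other regulators gave 9 lower and 0 higher of 18 (median -0.20) and under that scaling 1 and 6. The 8 lower genes called at 2 or more days were Akr1d1, Cyp39a1, Cyp46a1, Cyp2c70, Hsd17b4, Abcd3, Acot8 and Slco1a4, and their mean effects were also negative under the hepatocyte scaling, but smaller. Akr1d1 (-0.44), Cyp39a1 (-0.31), Cyp46a1 (-0.65) and Abcd3 (-0.33) were called under it, and Cyp2c70 (-0.20), Hsd17b4 (-0.11), Slco1a4 (-0.20) and Acot8 (-0.06, SE 0.12) were not.

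By TMM, Akr1d1, the steroid 5-beta-reductase of bile acid synthesis, was lower at days 3, 6 and 12 (log2 fold changes -0.74, -0.93 and -0.67, mean -0.76, SE 0.10, adjusted p = 3.95e-07). Abcd3, a peroxisomal membrane transporter that takes up bile acid intermediates, was lower at the same 3 days (-0.72, -0.91 and -0.70, mean -0.68, SE 0.08, adjusted p = 4.14e-08). Cyp39a1, an oxysterol 7-alpha-hydroxylase, was lower at days 6, 12 and 21 (-0.66, -0.89 and -0.73). Cyp2c70, which makes muricholic acids in mice, was lower at days 3 and 12 (-0.64 and -0.60). The peroxisomal enzymes Hsd17b4 (mean -0.46) and Acot8 (mean -0.41) and the uptake transporter Slco1a4 (mean -0.58) were each lower at 2 days. Cyp46a1, the cholesterol 24-hydroxylase, had a mean of -0.95 at a mean count of 88.2.

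The 2 genes higher in the mean were Ch25h, the cholesterol 25-hydroxylase (2.60, SE 0.31, adjusted p = 7.66e-08), and Ephx1, the microsomal epoxide hydrolase (0.47, SE 0.14, adjusted p = 0.00725). WT libraries held 0 to 6 counts of Ch25h, with a median of 2, against 4 to 106 and a median of 12 in HNKO. It reached 10 counts in 0 of 19 WT and 15 of 19 HNKO libraries, so that it passed the filter on low counts through HNKO alone and its fold change rests on WT counts near 0. Its adjusted p is therefore given no weight. Ch25h is also expressed by macrophages, whose markers were higher in the same comparison. Its part in this result was not tested.

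**Figure D4:**
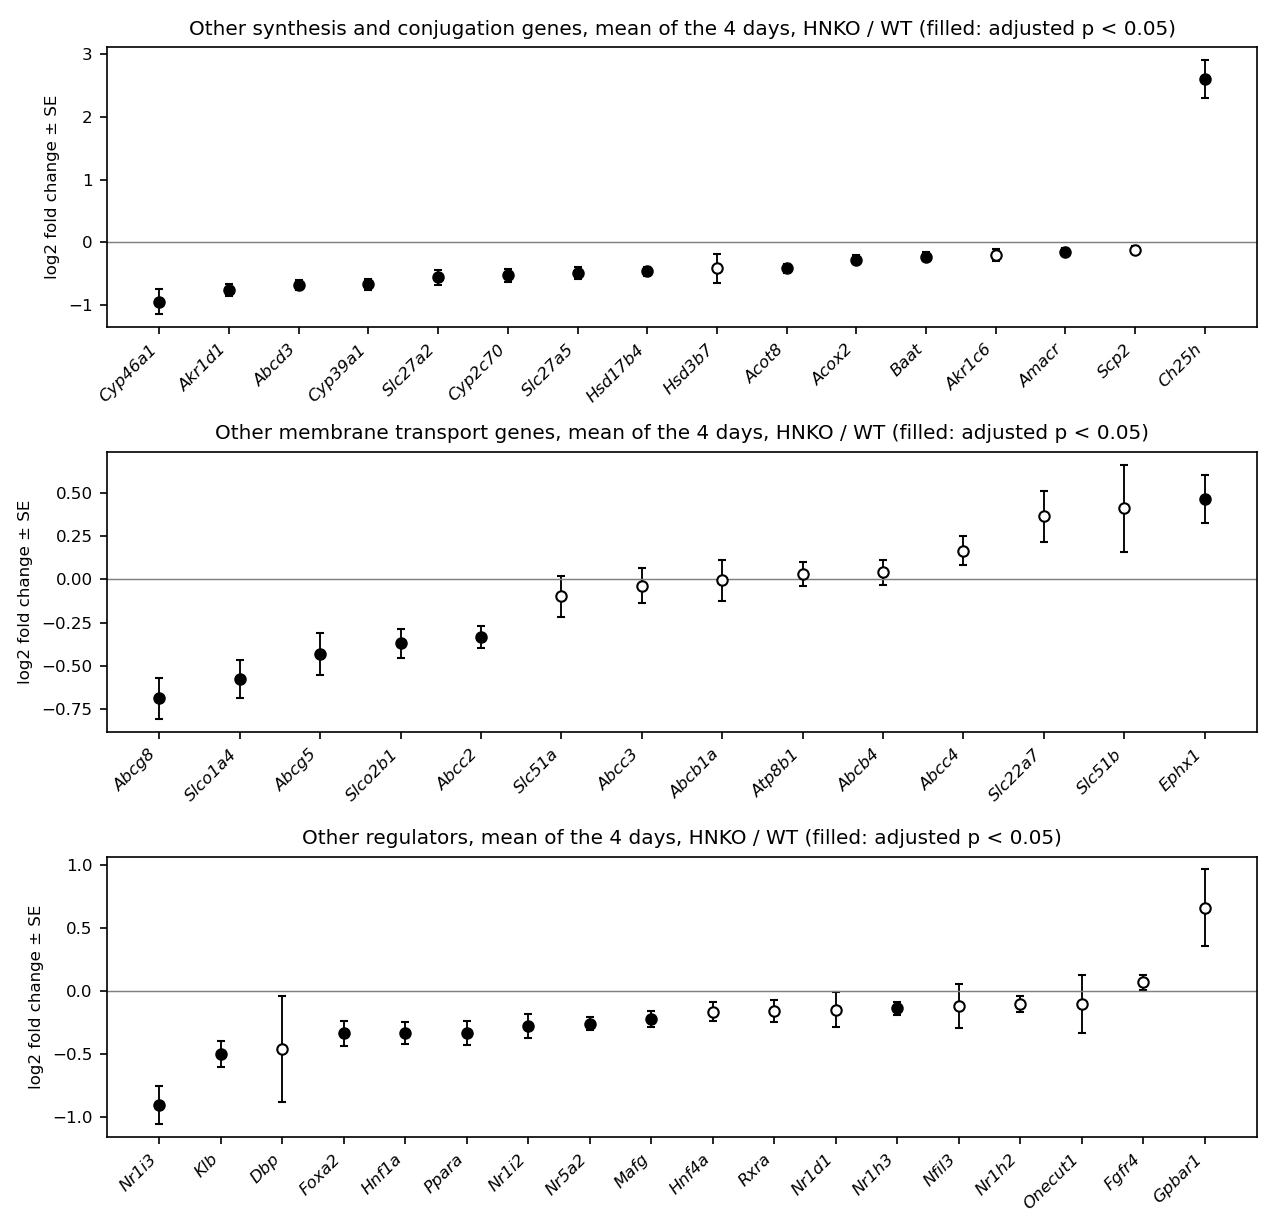
Mean log2 fold change over the 4 days, HNKO over WT (y axes, error bars SE), of the 48 other pathway genes (x axes) in 3 panels, filled where the adjusted p was under 0.05. In the panel of synthesis and conjugation, 12 of 16 genes are filled and below 0 (6 of 16 were called lower under the hepatocyte scaling). Ch25h stands at 2.60, but it passed the filter on low counts through HNKO alone and this value rests on WT counts near 0.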

How the data were processed

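Liver RNA of HNKO and WT mice was sequenced after rRNA depletion (TruSeq Stranded total RNA, 51-bp paired-end reads). Per the submitters' processing notes and the study's methods, the authors aligned reads to GRCm38 with STAR 2.7.2b, counted fragments with both ends aligned on GENCODE M22 genes with featureCounts 1.6.4, and deposited 1 table of raw counts without normalization. Here, counts of 38 libraries (16151037 to 64181492 each) were filtered with filterByExpr in edgeR 4.0.16 (in 3 or more libraries, the CPM that 10 counts give at the median library size, and 15 counts in total), leaving 99.9% of counts. A quasi-likelihood model with TMM factors, legacy dispersions and a coefficient for each of the 8 groups was fitted. P-values were adjusted by Benjamini-Hochberg over 20297 genes. Log2 CPM and RPKM values have a prior count of 2, and exon lengths and positions come from GENCODE M21. Exact permutation tests were two-sided. DESeq2 1.42.0 and other alternatives are given in the closing section. The models were also run on simulated data, and the outcome is not reported here. The 10 genes and all lists were chosen with earlier results of these data known. The 10 genes were named in full, other pathway genes where called at 2 or more days, and Ephx1 after its values were seen. Precision depends on depth and on 3 to 6 mice a group. Between 2 libraries of 1 group, the lowest chi-square per gene was 12.8 over 74 pairs, above the value near 1 that sampling noise gives.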

Additional observations from a re-analysis of the deposited data

Results flagged for a closer look

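In 70 sets of 4 to 6 libraries (1 gene in 1 group), 3 had a highest or lowest library whose gap to the nearest of the others exceeded Dixon's critical value, where chance flags about 1 set in 20. Cyp7a1 in WT library 16 of day 12 was 8.45 log2 CPM (7315 counts), against 5.76 to 6.09 in the other 4 WT libraries of that day. Its clock score was 3.55, the highest of the 38 libraries, and without it the log2 fold change of Cyp7a1 at day 12 was 0.98 in place of 0.01. Abcb11 in HNKO library 7 of day 6 was 9.12 log2 CPM (16293 counts), against 9.68 to 9.90 in the other 4. Nr1h4 in HNKO library 35 of day 12 was 6.40 log2 CPM (2643 counts), against 7.04 to 7.32 in the other 5.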

How the results depend on the processing

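The hepatocyte scaling, the acute phase score, the mean over 3 days, and DESeq2 and the clock score for the mean were chosen after seeing the data. In the mean effect the 5 genes were called under RLE size factors, DESeq2, all 40 libraries, the library number series, the clock score, the mean over days 3, 6 and 12, and each left-out library (5 to 6 genes called in all). They were not under the acute phase score (951 genes called), which separated the genotypes at each day and can barely be told from genotype. Apart from Slc10a1 and Slco1b2, they were also not called under the hepatocyte scaling (13081 genes, 3 of the 10, with Nr0b2 called higher). The cause was not tested.

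With DESeq2, 1428 genes at day 3 and 994 at day 21 were called, with 3, 3 and 2 of the 10 at days 3, 6 and 12. With all 40 libraries, 331, 1321, 624 and 1350 genes were called at the 4 days. With the 2 groups of a day alone, 420, 1325 and 867 genes were called at days 3, 6 and 12, with 0 of the 10 at day 3 and 1 at day 12. RLE size factors called 2 of the 10 at day 3, and the library number series 2 at day 6 and 1 at day 12. The clock score called 3795 genes at day 12 and 1007 at day 21, with 2, 3 and 3 of the 10 at days 3, 6 and 12. For the day effect within WT, all 40 libraries called 581 genes and 0 of the 10, and the library number series 2224 genes.

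The hepatocyte scaling called 1818, 7509, 537 and 353 genes at the 4 days, with 0 of the 10 at days 3 and 6, and 97.4%, 99.2%, 92.9% and 95.5% of the genes called were higher, against 63.3%, 65.8%, 58.2% and 70.7% with TMM. In the mean 97.4% were higher, against 52.6%. Under it, 17 log2 fold changes changed sign. At day 3 these were Cyp8b1 (0.0388), Nr1h4 (0.13) and Nr0b2 (0.10). At day 6 they were Cyp27a1 (0.0661), Cyp7b1 (0.28), Abcb11 (0.21), Nr1h4 (0.21) and Nr0b2 (0.26). At day 12 they were Slco1a1 (0.14), Nr1h4 (0.0579) and Nr0b2 (0.18), and at day 21 Cyp8b1 (0.0392), Cyp27a1 (0.0366) and Cyp7b1 (0.0362). In the mean they were Cyp27a1 (0.0217), Nr1h4 (0.19) and Nr0b2 (0.28). None of these 17 was called under TMM except Cyp27a1 in the mean. Other sign changes were Cyp7a1 at day 12 with the clock score (-0.39), Nr1h4 at day 21 with all 40 libraries (-0.0475), Cyp7a1 (-0.46) and Nr0b2 (0.61) in the mean with the acute phase score, and Cyp7a1 (-0.001) and Slco1a1 (-0.16) in the mean over days 3, 6 and 12.

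Leaving out 1 library gave 322 (HNKO 23) to 1668 (HNKO 22) genes at day 3, 1126 (HNKO 29) to 3027 (HNKO 31) at day 6, 852 (WT 15) to 1773 (HNKO 29) at day 12, and 13 (HNKO 37) to 915 (HNKO 29) at day 21. Other libraries that moved a count by over 1.5 times were, at day 3, HNKO 2 (331), 3 (443) and 4 (1473) and WT 5 (520), 24 (535) and 25 (373), at day 6, WT 8 (1638) and 10 (1666), at day 12, HNKO 13 (929) and WT 33 (990), and at day 21, WT 19 (277), 20 (387), 21 (398) and 41 (318). Of the 10 genes, 0 to 3 were called at days 3 and 6, 0 to 1 at day 12, and 0 to 1 for the day effect within WT, and the interaction called 0 to 3 genes. Uncalled values that crossed 0 were Slco1a1 (-0.0065 to 0.79) and Nr0b2 (-0.46 to 0.0279) at day 6, Cyp7a1 (-0.27 to 0.98), Slco1a1 (-0.82 to 0.0876) and Nr1h4 (-0.32 to 0.0101) at day 12, and Cyp7a1 (-0.13 to 0.26), Cyp8b1 (-0.56 to 0.0251), Cyp7b1 (-1.02 to 0.21) and Nr0b2 (-0.0441 to 0.62) at day 21. Of the 5 genes, daily values that kept their sign but moved by over 1.5 times were, beside those in the report, Cyp8b1 at day 3 (-0.51 to -0.09), Abcb11 at day 6 (-0.19 without HNKO 7) and Cyp27a1 at day 21 (-0.17 without HNKO 37). Uncalled daily values of Cyp7a1, Cyp7b1, Slco1a1, Nr1h4 and Nr0b2 also moved by over 1.5 times without a change of sign. In the mean, values that crossed 0 were Cyp7a1 (-0.0618 to 0.27), Slco1a1 (-0.11 to 0.26) and Nr0b2 (-0.15 to 0.0133). With 3 HNKO libraries, day 21 had the largest standard errors for each of the 10 genes.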
